A study of Mus musculus with 36 samples.

Results

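RNase P and RNase MRP are related RNA-protein enzymes, and the genes described here encode 10 of the protein subunits that these enzymes share or that belong to RNase P: *Pop1*, *Pop4*, *Pop5*, *Pop7*, *Rpp14*, *Rpp21*, *Rpp25*, *Rpp25l*, *Rpp30* and *Rpp38*. They were taken by gene symbol, and all 10 were present in each of the 6 deposited tables, among 18419 genes that all the tables hold. The set was chosen by the slower loss of label of *Rpp25l*, *Rpp38* and *Pop7* after METTL3 depletion, as measured by the new-to-total ratios of that line. Values of that contrast are therefore a description: which members pass the threshold of the fit across all genes is stated, but no p is given and nothing is read from those counts. Tests of members come from the other 2 lines.

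The data are SLAM-seq libraries from mouse embryonic stem (ES) cells. In this assay 4-thiouridine (4sU) enters RNA made during a pulse, iodoacetamide treatment makes reverse transcriptase read it as C, and T-to-C mismatches mark new RNA. The 36 libraries came from 3 XX ES cell lines on a Cast x 129S background, each a single clone, with the FKBP12 F36V degron tag on METTL3 in clone 12D, on YTHDC1 in clone Y12H and on ZCCHC8 in clone Z12H. All lines, controls included, carry a TetOn promoter that replaces the Xist promoter on the 129S allele and a Bgl stem-loop in Xist, and all received doxycycline at 1 µg/ml. The labels name the arms Ctrl and dTAG. Per the methods, Ctrl cells received no dTAG-13, and in dTAG cells it was added 2 h before doxycycline. After 20 h of doxycycline the cells were pulsed for 4 h with 500 µM 4sU and then collected at 0, 90 or 180 min of a chase in 50 mM uridine, with 2 replicates of each line, arm and time.

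RNase P removes the 5′ leader of precursor tRNA, and RNase MRP cuts precursor ribosomal RNA. Each has a catalytic RNA wrapped in a largely shared set of proteins. POP1 is the largest of these proteins. RPP25 and its paralogue RPP25L are Alba-family proteins that bind the RNA as a pair with POP7, and RPP38 belongs to the L7Ae family of RNA-binding proteins. POP5, RPP30 and RPP14 contact each other in the protein core, POP4 joins RPP21 and RPP38, and RPP21 is a protein of RNase P rather than of RNase MRP. METTL3 is the methyltransferase that writes N6-methyladenosine (m6A) in mRNA, YTHDC1 binds m6A in the nucleus, and the NEXT complex, whose scaffold is ZCCHC8, brings nuclear RNA to the exosome.

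The genes are scattered over the genome (mm10 build). *Pop1* is on chr15:34495304-34530648 (+ strand), *Rpp25l* on chr4:41712033-41713534 (− strand), *Rpp25* on chr9:57504026-57505448 (+ strand), *Pop7* on chr5:137501438-137502518 (− strand) and *Rpp38* on chr2:3328949-3332643 (− strand). *Pop5* is on chr5:115235836-115245351 (+ strand), *Rpp30* on chr19:36083716-36104777 (+ strand), *Rpp14* on chr14:8080367-8091834 (+ strand), *Pop4* on chr7:38261996-38271423 (− strand) and *Rpp21* on chr17:36255645-36258069 (− strand). Their gene models differ in a way that the choice of genes did not use. In one transcript per gene of the GENCODE M21 annotation, *Pop7*, *Rpp25*, *Rpp25l* and *Rpp38* each have their whole coding sequence in 1 exon, which is true of 16.6% of the 21866 protein-coding genes. *Pop7* and *Rpp25* consist of 1 exon, while *Rpp25l* and *Rpp38* have 2. The other 6 genes have 5 to 16 coding exons, with 16 in *Pop1* and 11 in *Rpp30*. RefSeq lists a second gene, *Htd2*, at the coordinates of *Rpp14*, so that their reads cannot be told apart. Exons of *Pop4* share 12 bases with *Gm44767* on the opposite strand, and the kit marks strand. The span of *Pop7* overlaps that of *Epo* on the same strand, with 0 shared exonic bases. *Rpp25* and *Rpp25l* are paralogues, and the authors counted uniquely mapped reads.

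The pentamer GGACT is a common form of the sequence at which METTL3 methylates adenosine. On the sense strand it occurs in 87.5% of all protein-coding transcripts, with a median of 1.01 per kb. *Pop4* and *Rpp21* have none, *Rpp25l* has 1, *Rpp14* has 3, *Pop1* has 6 and the other 5 members have 2 each. The 7 occurrences in the 4 members with 1 coding exon are shown because these 4 genes are the members that passed for label loss in the METTL3 line. Each is given in mRNA orientation with 10 bases on either side and with GGACT in capitals. A match says only that the letters are present, and methylation was not measured in these tables.
Rpp25l, coding sequence, chr4:41712450-41712474, − strand: accagacacgGGACTagaccccctc
Rpp38, coding sequence, chr2:3329684-3329708, − strand: taaattgattGGACTtcagaaaatt
Rpp38, coding sequence, chr2:3329304-3329328, − strand: agaacaccagGGACTttgctgatga
Pop7, 5′ UTR, chr5:137502066-137502090, − strand: ctccatgccaGGACTcagagcatgg
Pop7, 3′ UTR, chr5:137501495-137501519, − strand: tcagcctagaGGACTgagaatggag
Rpp25, 3′ UTR, chr9:57505117-57505141, + strand: gtgggtagtgGGACTcttgagcttt
Rpp25, 3′ UTR, chr9:57505359-57505383, + strand: ggctgagaggGGACTtaggacaaaa

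The libraries held between 5274684 and 18652000 reads in genes, with the ZCCHC8 line the shallowest at 5274684 to 10257631. Of the 6 ES cell markers examined (*Pou5f1*, *Nanog*, *Sox2*, *Zfp42*, *Esrrb* and *Dppa5a*), each was at 130.2 CPM (counts scaled to the TMM-normalised library size) or more in every library, and 2 of them passed as higher in dTAG of the ZCCHC8 line. The 6 feeder fibroblast markers together ranged from 5.82 to 27.9 CPM, *Col3a1* and *Postn* were at 0 in some libraries, and in the METTL3 line their sum was 8.98 to 24.6 CPM in Ctrl and 8.77 to 27.9 CPM in dTAG. The degron acts on protein, so the mRNA of the tagged gene does not check the labels. *Mettl3* was at 53.9 to 64.6 CPM in Ctrl and 54.8 to 62.0 CPM in dTAG of its own line. In bulk RNA, fewer cells with an mRNA and less of it per cell cannot be told apart. Nothing in the labels says that the 2 replicates are separate cultures from different days. The study's reporting summary states that the wells of one replicate were split from one batch of cells. The main fits took the libraries of a line as independent, so their p mix spread between 2 batches with scatter between wells of one batch. Fits with the replicate as a block take out a constant difference between batches, so their p rest on scatter within batches.

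In Ctrl cells the 10 mRNAs were of similar, modest abundance. Per length, *Pop5* stood highest in all 3 lines, with a median over 6 Ctrl libraries of 48.1 CPM per kb for METTL3, 54.9 for YTHDC1 and 51.4 for ZCCHC8. *Rpp14* stood lowest, with medians of 16.8, 17.6 and 11.3 CPM per kb. Between these, the ranges of neighbouring genes in the order of medians overlapped in every line, so their order cannot be read. *Pop5* did not overlap the gene below it in the YTHDC1 line (*Rpp30*) and the ZCCHC8 line (*Rpp25*), and *Rpp14* did not overlap the gene above it (*Rpp38*) in the ZCCHC8 line.

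The members fell into 2 groups by how their label behaved in Ctrl cells. The measure is the new-to-total ratio of GRAND-SLAM, the estimated share of a gene's RNA that carries label. At the end of the pulse *Rpp25l*, *Rpp25*, *Pop7*, *Rpp38* and *Rpp14* were mostly labelled, at ratios between 0.801 and 1.00 over the 6 Ctrl libraries of the 3 lines, and the ratio was lower at 180 min than at 0 min in each of the 6 Ctrl series of each gene. *Pop1* and *Pop5* started between 0.546 and 0.634, *Rpp30* and *Pop4* between 0.312 and 0.416, and *Rpp21* between 0.168 and 0.240. None of these 5 lost label in all of the Ctrl series. The label of *Rpp30*, *Pop4* and *Rpp21* was higher at 180 min than at 0 min in all 6 series, and *Rpp21* went from 0.168 and 0.218 at 0 min to 0.304 and 0.325 at 180 min in Ctrl cells of the METTL3 line.

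All 5 genes of the first group kept less label than the median gene. This follows in part from forming the group by its label in Ctrl cells of the 3 lines. In Ctrl cells of the METTL3 line the ratio at 180 min was 31.7% and 34.2% of that at 0 min for *Rpp38* in replicates 1 and 2, 32.4% and 39.8% for *Rpp25l*, and 36.7% and 36.2% for *Pop7*. It was 50.1% and 49.2% for *Rpp25* and 52.8% and 47.5% for *Rpp14*. The median over the 8289 genes that passed the filter of this line (100 reads or more and ratios from 0.02 upwards throughout) was 82.1% and 85.5%. The ratios of the YTHDC1 and ZCCHC8 lines did not choose the members, but they helped to form this group. The shares below are therefore a description. In the YTHDC1 line less label was left in Ctrl cells than for *Pop7* in 2.03% of the genes and than for *Rpp38* in 2.59%. The share was 5.29% for *Rpp25l*, 8.08% for *Rpp25* and 20.4% for *Rpp14*. In the ZCCHC8 line the shares were 1.52% for *Pop7*, 3.14% for *Rpp25l* and 13.8% for *Rpp25*. In the METTL3 line they were 4.55% for *Pop7*, 4.45% for *Rpp25l*, 2.56% for *Rpp38*, 16.9% for *Rpp25* and 17.5% for *Rpp14*, as a description. A log-linear fit of the ratio gave an apparent half-life of label in Ctrl cells, over 3 lines with 2 replicates each, of 122 ± 35.2 min for *Pop7* (SD, n = 6), 126 ± 37.2 min for *Rpp38* and 133 ± 39.4 min for *Rpp25l*. It was 193 ± 103 min for *Rpp25* and 214 ± 88.6 min for *Rpp14*. These values include dilution by RNA made after the pulse, and they depend on the measure and the times fitted. From the T-to-C rate they were 84.6 min for *Pop7*, 73.9 min for *Rpp38*, 86.6 min for *Rpp25l*, 112 min for *Rpp25* and 121 min for *Rpp14*. The median ratio over all genes itself changed between chase times, and its part in these half-lives was not tested. For *Rpp25l* the fit to 0 and 90 min gave 284 min, and the fit to 90 and 180 min gave 92.0 min.

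**Figure D1:**
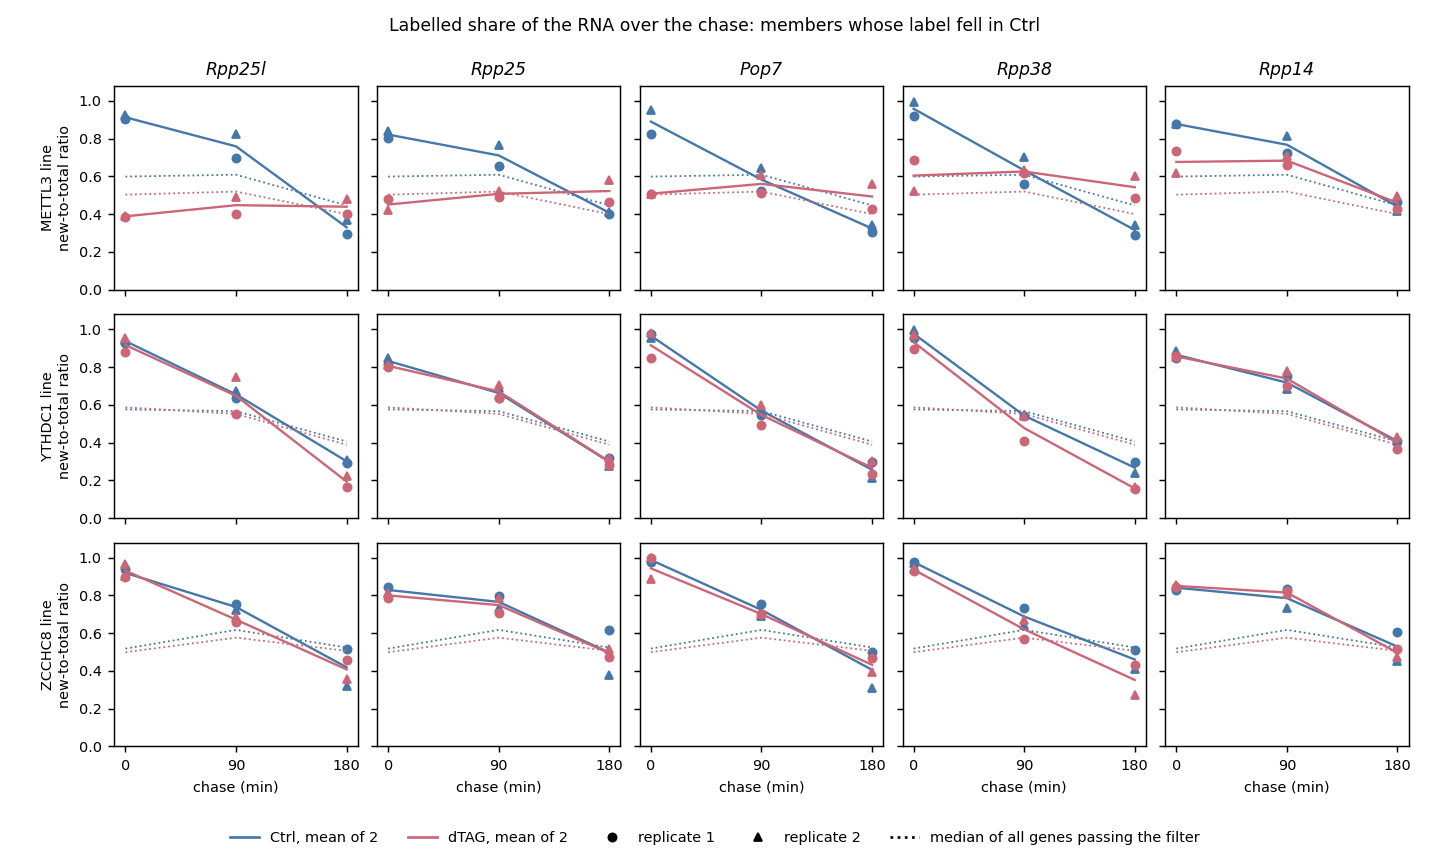
New-to-total ratio (y axis, share of RNA that is labelled) against chase time in min (x axis) for *Rpp25l*, *Rpp25*, *Pop7*, *Rpp38* and *Rpp14* in the METTL3, YTHDC1 and ZCCHC8 lines. Points are single libraries, solid lines are means of 2 replicates and dotted lines are medians over all genes passing the filter, Ctrl in blue and dTAG in red. In the METTL3 line the dTAG series of the first 4 genes start lower than Ctrl and fall less or do not fall. Those of *Rpp14* also start lower, with 57.8% and 80.3% of the ratio left at 180 min against 52.8% and 47.5% in Ctrl. In the other 2 lines both arms fall, with dTAG below Ctrl at 180 min for *Rpp25l* and *Rpp38* in the YTHDC1 line.

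The METTL3 line was used to choose the genes, and its values are described first. After METTL3 depletion *Rpp25l*, *Rpp25*, *Pop7* and *Rpp38* were less completely labelled at the end of the pulse. Their ratio at 180 min was then a larger share of that at 0 min than in Ctrl. For *Rpp38* the share left at 180 min in dTAG was 70.7% and 115% in replicates 1 and 2, and for *Pop7* 84.3% and 110%. For *Rpp25l* it was 104% and 122%, and for *Rpp25* 96.9% and 137.5%, with replicate 1 the lower for each gene. The median over all genes passing the filter was 74.3% and 98.9% in dTAG, so *Rpp38* was below it in replicate 1. The part of this median in the members' values was not tested. *Rpp25l* in Ctrl cells had ratios of 0.904 and 0.923 at 0 min, 0.695 and 0.823 at 90 min and 0.293 and 0.368 at 180 min, in replicates 1 and 2. In dTAG cells the ratios were 0.385 and 0.392, then 0.402 and 0.493, then 0.400 and 0.479. The arms therefore did not overlap at any of the 3 times, with dTAG below Ctrl at 0 and 90 min and above it at 180 min.

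*Rpp38* showed the same crossing with more spread between replicates. Its Ctrl ratios were 0.920 and 0.997 at 0 min, 0.562 and 0.702 at 90 min, and 0.291 and 0.341 at 180 min. Its dTAG ratios were 0.686 and 0.523, then 0.620 and 0.633, then 0.485 and 0.601. The arms were apart at 0 and 180 min and overlapped at 90 min.

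*Pop7*, the partner of both RPP25 proteins, had Ctrl ratios of 0.827 and 0.954 at 0 min, 0.524 and 0.642 at 90 min, and 0.304 and 0.345 at 180 min. In dTAG cells these were 0.508 and 0.509, then 0.514 and 0.607, then 0.428 and 0.559. *Rpp25* had Ctrl ratios of 0.801 and 0.842, then 0.658 and 0.765, then 0.401 and 0.414. In dTAG cells it had 0.481 and 0.421, then 0.491 and 0.525, then 0.466 and 0.579. Both genes began lower in dTAG in both replicates and ended higher. *Rpp14* also began lower, with 0.879 and 0.877 at 0 min in Ctrl and 0.736 and 0.617 in dTAG. At 180 min its arms overlapped, at 0.464 and 0.417 in Ctrl and 0.426 and 0.495 in dTAG.

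On the log2 scale the slope of the ratio per hour of chase was higher in dTAG than in Ctrl by 0.55 ± 0.095 (SE) for *Rpp25l*, 0.48 ± 0.097 for *Rpp38*, 0.47 ± 0.091 for *Pop7* and 0.41 ± 0.093 for *Rpp25*. These 4 of the 9 members tested passed an adjusted p of 0.05 in limma across all genes, against 0.471% of the 8289 genes, and nothing is read from that count since the contrast was used to choose the genes. Of the members that passed, *Rpp25* had the smallest difference, and the next member, *Rpp14*, was at 0.15 ± 0.097 and did not pass. *Pop1* was at 0.11, *Pop4* at 0.04, *Pop5* at 0.03 and *Rpp30* at −0.16, and *Rpp21* failed the read filter with as few as 62 reads in a library. The median over the members tested was 0.15 and that over all genes was −0.01.

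The median ratio over all genes also differed between the arms. At 0 min it was 0.596 and 0.603 in Ctrl and 0.523 and 0.484 in dTAG, and its part in the members' starting ratios was not tested. An alternative added after the data were seen took each ratio relative to the median of its library. The same 4 members then passed as higher and *Rpp30* passed as lower. That fit called 1172 of 8289 genes (14.1%), against 39 in the main fit, and nothing is read from these counts. The 4 calls rest on replicate 1: without it no member passed, although the 4 differences then lay between 0.49 and 0.58. The 4 calls were also lost when genes with as few as 20 reads were admitted, which raised the number of genes tested to 11369 and left 5 calls in all.

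**Figure D2:**
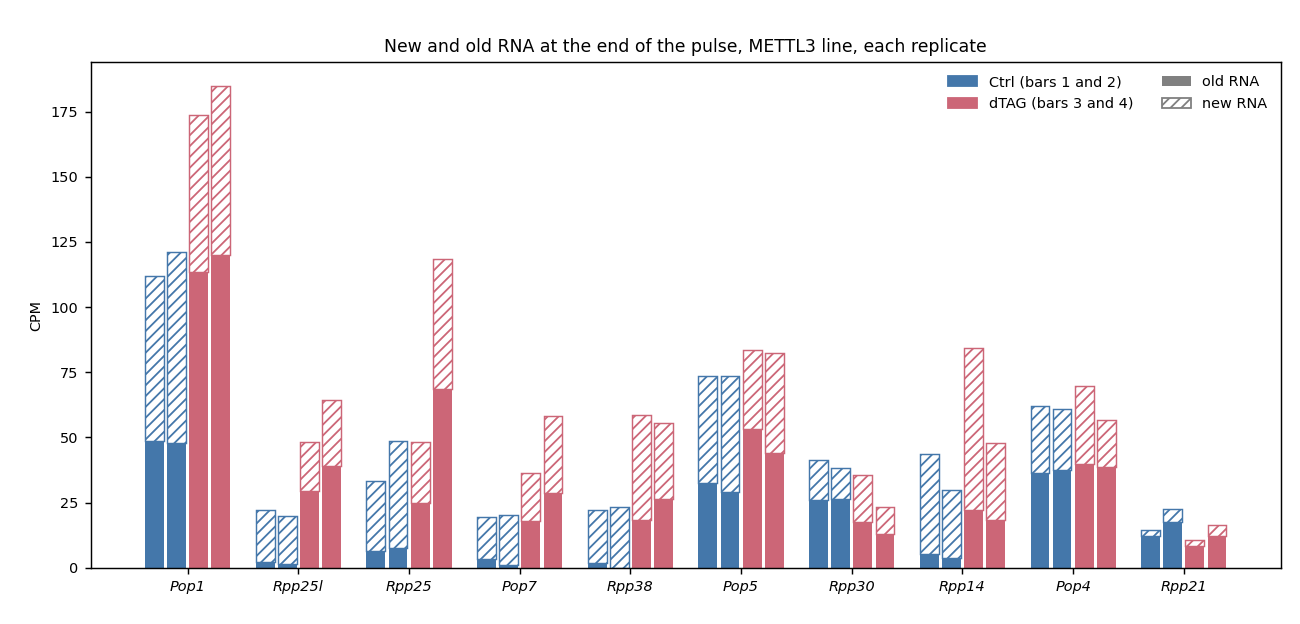
New RNA (hatched) and old RNA (solid) in CPM (y axis) at the end of the pulse for the 10 members in the METTL3 line, with one bar per library, Ctrl replicates 1 and 2 in blue and dTAG replicates 1 and 2 in red. Old RNA of *Rpp25l* is 2.14 and 1.54 CPM in Ctrl and 29.7 and 39.1 CPM in dTAG, whereas its new RNA is of similar height in all 4 libraries.

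The lower ratio at the end of the pulse went with more old RNA. Old RNA is the CPM of a gene times the share without label, and new RNA is the CPM times the ratio. At 0 min *Rpp25l* had 2.14 and 1.54 CPM of old RNA in Ctrl cells and 29.7 and 39.1 CPM in dTAG cells, while its new RNA was 20.1 and 18.5 CPM in Ctrl and 18.6 and 25.2 CPM in dTAG. *Pop7* had 3.37 and 0.934 CPM of old RNA in Ctrl and 17.8 and 28.5 CPM in dTAG. *Rpp25* had 6.65 and 7.70 CPM in Ctrl and 25.0 and 68.6 CPM in dTAG. *Rpp38* had 1.78 and 0.0815 CPM in Ctrl and 18.5 and 26.4 CPM in dTAG, and its new RNA went from 20.6 and 23.2 CPM to 40.3 and 28.9 CPM. For all 4 genes both dTAG libraries were above both Ctrl libraries in old RNA.

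Over the whole chase, old RNA was higher in dTAG by 2.37 ± 0.44 (log2 of CPM plus 0.5, ± SE) for *Rpp25l*, 1.69 ± 0.42 for *Pop7*, 1.62 ± 0.38 for *Rpp25* and 1.24 ± 0.15 for *Pop1*. These 4 of 9 members passed, against 12.7% of the genes as higher, and none passed as lower, against 3.61%, from which nothing is read since old RNA is computed from the ratios that chose the genes. *Rpp38* was higher on average by 1.49 ± 0.69 and *Rpp14* by 1.11 ± 0.39 without passing. *Pop5* was at 0.52 ± 0.17, *Pop4* at 0.06 ± 0.19 and *Rpp30* at −0.80 ± 0.31. At 180 min both dTAG libraries of *Rpp38* were below both Ctrl libraries, at 21.8 and 12.7 CPM against 28.7 and 23.0 CPM. The arms of *Rpp25* overlapped at that time, while both dTAG libraries of *Rpp25l*, *Pop7* and *Pop1* were above both Ctrl libraries. With the replicate as a block, *Pop5* and *Rpp14* passed as higher too, *Rpp30* passed as lower, and the count was 7, in a fit that called 3152 of 8289 genes. Without replicate 1 *Pop1* alone passed.

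New RNA behaved differently from old RNA. Averaged over the chase times, it was higher in dTAG by 1.01 ± 0.25 for *Pop7*, 0.71 ± 0.20 for *Rpp25l* and 0.70 ± 0.11 for *Rpp38*. These genes passed, against 2.63% of the genes as higher. The average covers label kept over the chase as well as label present at its start. At 0 min the arms overlapped for *Pop7* and *Rpp25l*, while both dTAG libraries of *Rpp38* were above both Ctrl libraries. At 180 min both dTAG libraries were above both Ctrl libraries for each of these genes. *Pop5*, a core subunit, passed as lower with −0.42 ± 0.10, against 12.9% of the genes, and nothing is read from these counts. *Pop1* was at −0.07 ± 0.10, so that this gene had more old RNA with no called difference in new RNA. *Rpp25* was at 0.63 ± 0.35, *Rpp14* at 0.41 ± 0.27, *Pop4* at −0.03 ± 0.17 and *Rpp30* at −0.27 ± 0.19. Without replicate 1, when 4416 of 8970 genes passed, 7 members did. Without replicate 2 *Rpp25l* no longer passed, its value being 0.40 against 1.02 without replicate 1.

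Total read counts of these genes were higher as well. *Rpp25l* ranged from 17.3 to 25.5 CPM (median 21.2) in the 6 Ctrl libraries and from 37.5 to 64.3 CPM (median 49.1) in the 6 dTAG libraries, and *Pop7* from 17.3 to 20.7 CPM (median 20.2) and from 32.7 to 62.6 CPM (median 40.0). For these 2 genes each dTAG library was above each Ctrl library, which was so for 4.66% of the genes tested, and no member lay below without overlap, against 3.09%. *Pop1* ranged from 81.9 to 121.0 CPM (median 107) in Ctrl and from 120.6 to 185 CPM (median 159) in dTAG, so that the arms overlapped at their edges. *Rpp25* ranged from 21.1 to 48.7 CPM (median 33.2) in Ctrl and from 29.7 to 119 CPM (median 59.0) in dTAG, with replicate 2 above replicate 1 at every time in both arms. *Rpp38* ranged from 22.3 to 40.5 CPM (median 27.1) and from 31.8 to 58.7 CPM (median 46.1), with overlap.

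In edgeR the counts were higher in dTAG by 1.28 ± 0.15 (log2, ± SE) for *Rpp25l*, 1.20 ± 0.17 for *Pop7*, 1.10 ± 0.31 for *Rpp25*, 0.70 ± 0.20 for *Rpp38* and 0.58 ± 0.09 for *Pop1*. These 5 of 10 passed, against 11.3% of the 14413 genes tested as higher, and none passed as lower, against 8.8%, with nothing read from these counts either. *Rpp14* was at 0.62 ± 0.28, *Pop5* at 0.07 ± 0.10 and *Pop4* at 0.04 ± 0.16, while *Rpp21* was at −0.53 ± 0.23 and *Rpp30* at −0.50 ± 0.22. In pairs of libraries of the same replicate and time, *Rpp21* and *Rpp30* were lower in dTAG in 6 of 6, as were 20.8% of the genes tested. With the replicate as a block, which called 6994 of 14413 genes, *Rpp14* passed as higher and *Rpp21* and *Rpp30* as lower, for 8 members in all.

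The difference in counts was not constant over the chase for *Rpp38*. Its ratio of dTAG to Ctrl CPM was 2.63 and 2.38 at 0 min in replicates 1 and 2, 1.61 and 1.79 at 90 min, and 1.04 and 0.912 at 180 min. In Ctrl cells its level rose from 22.3 and 23.3 CPM to 40.5 and 34.9 CPM over the chase, while in dTAG cells it fell from 58.7 and 55.4 CPM to 42.3 and 31.8 CPM. *Pop7* had ratios of 1.86 and 2.89 at 0 min, 1.70 and 3.08 at 90 min and 1.89 and 2.13 at 180 min, and *Rpp25l* went from 2.17 and 3.21 to 1.47 and 2.44.

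**Figure D3:**
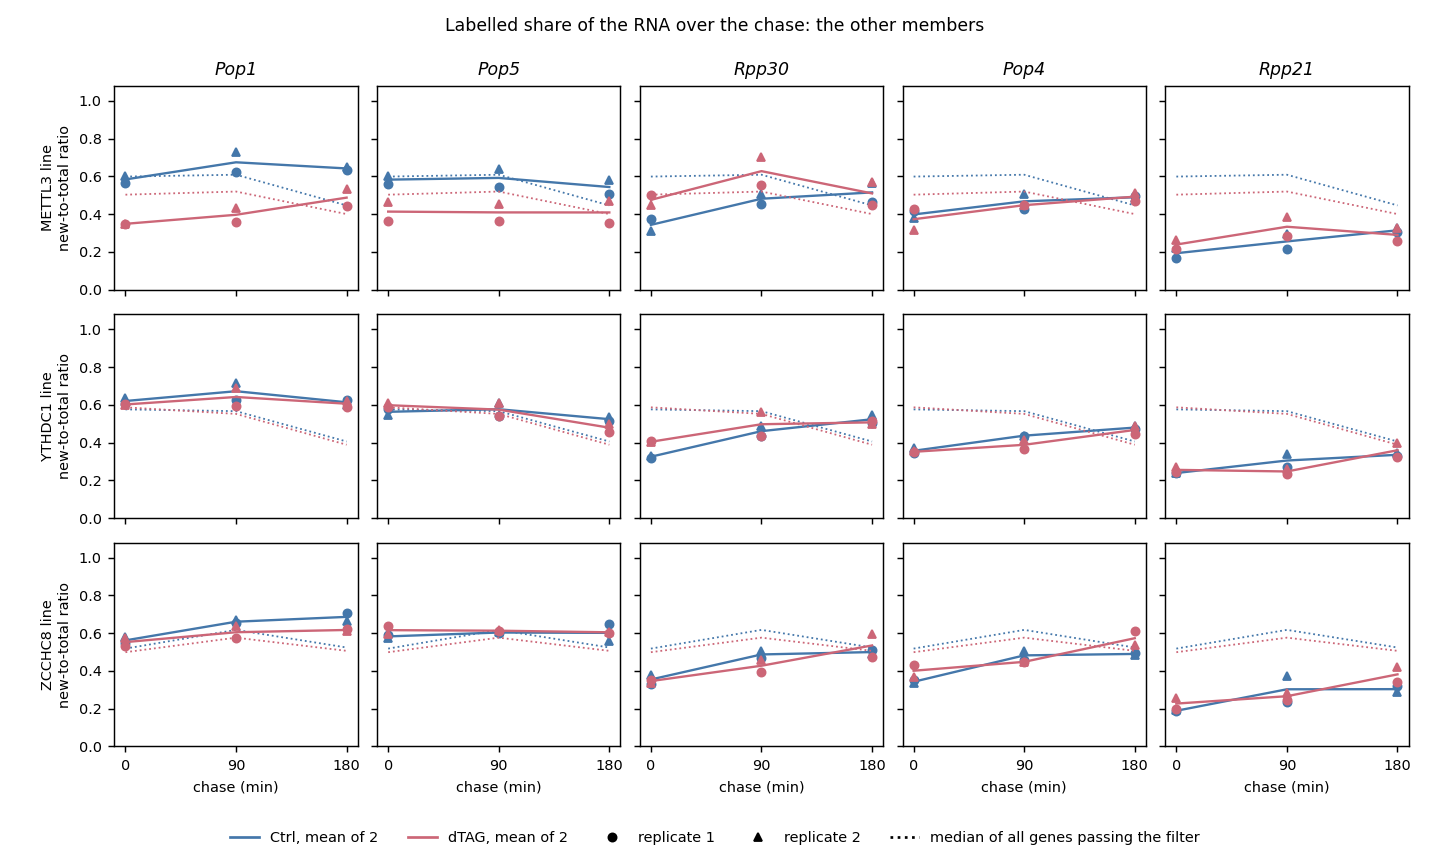
New-to-total ratio (y axis) against chase time in min (x axis) for *Pop1*, *Pop5*, *Rpp30*, *Pop4* and *Rpp21* in the 3 lines, drawn as for the other members. In the METTL3 line *Pop1* and *Pop5* start lower in dTAG than in Ctrl and *Rpp30* starts higher, and *Rpp30* also starts higher in dTAG in the YTHDC1 line.

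The other 5 members also differed among themselves at the end of the pulse in the METTL3 line. *Pop1* had ratios at 0 min of 0.564 and 0.604 in Ctrl and 0.348 and 0.350 in dTAG, and *Pop5* had 0.561 and 0.605 in Ctrl and 0.364 and 0.464 in dTAG. *Rpp30* went the other way, with 0.375 and 0.312 in Ctrl and 0.504 and 0.448 in dTAG. It was also higher in dTAG without overlap in the YTHDC1 line, with 0.320 and 0.330 in Ctrl and 0.407 and 0.401 in dTAG. *Pop4* had 0.416 and 0.381 in Ctrl and 0.429 and 0.317 in dTAG, and the arms overlapped. *Rpp21* had 0.168 and 0.218 in Ctrl and 0.213 and 0.265 in dTAG, which overlapped as well.

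In the YTHDC1 line, which the choice of genes did not use, the question was whether loss of a nuclear m6A reader had a like effect on these mRNAs. No member passed for read counts, label loss, new RNA or old RNA, against 5.25%, 0%, 2.88% and 0.714% of the genes tested, either direction counted (2.48% higher and 2.77% lower for read counts, 0.907% and 1.97% for new RNA), and DESeq2 gave none for read counts. Among the genes tested, an unadjusted p under 0.05 was reached by 2651 for read counts in edgeR and, in limma, by 195 for label loss, 1315 for new RNA and 1174 for old RNA. The label of *Rpp25l* fell from 0.929 and 0.946 to 0.294 and 0.307 over the chase in Ctrl cells and from 0.881 and 0.952 to 0.165 and 0.222 in dTAG cells, the reverse of the order at 180 min in the METTL3 line. *Rpp38* fell from 0.956 and 0.998 to 0.296 and 0.238 in Ctrl and from 0.897 and 0.967 to 0.151 and 0.162 in dTAG. Its slope differed by −0.23 ± 0.077 with an unadjusted p of 0.00716 and an adjusted p of 1.00 in limma, so the difference did not pass. *Rpp25l* was at −0.21, *Rpp30* at −0.12 and *Pop5* at −0.07, none of which passed. *Rpp14*, *Pop4*, *Rpp21*, *Pop1*, *Rpp25* and *Pop7* lay between −0.01 and 0.05.

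Read counts in the YTHDC1 line were lower in dTAG for several members when libraries of the same replicate were paired. *Rpp25* ranged from 20.3 to 56.8 CPM (median 41.8) in Ctrl and from 16.6 to 50.2 CPM (median 30.7) in dTAG, so that the arms overlapped widely, yet it was lower in dTAG in 6 of 6 pairs. Its log2 change was −0.31 ± 0.29 with an adjusted p of 0.668 in edgeR without pairing, and −0.32 with an adjusted p of 0.00488 with the replicate as a block. *Pop4*, *Rpp38* and *Rpp25l* were also lower in 6 of 6 pairs, as were 14.6% of the genes tested in this line. Without pairing their log2 changes were −0.21 (adjusted p 0.220), −0.27 (adjusted p 0.145) and −0.22 (adjusted p 0.468) in edgeR, and with the block their adjusted p were 0.0105, 0.0123 and 0.0363. The block called 27.3% of all genes for read counts and 16.1% for new RNA. New RNA gave the same 4 genes with the block, led by *Rpp38* at −0.57 (adjusted p 0.00706 in limma, and 0.0934 without the block). In new RNA the other 6 members lay between −0.20 and 0.08, and in old RNA all 10 lay between −0.26 and 0.34. *Rpp21* was at −0.19 in read counts, *Rpp14* at −0.07, *Rpp30* at −0.06, *Pop5* at −0.01 and *Pop1* at 0.06. *Pop7* was at 0.12 ± 0.10 here, with 21.2 to 30.6 CPM in Ctrl and 23.6 to 27.5 CPM in dTAG.

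In the ZCCHC8 line, the question was whether loss of the NEXT scaffold changed these mRNAs. *Rpp21*, the subunit of RNase P, rose, and *Pop4* fell. *Rpp21* ranged from 14.9 to 26.9 CPM (median 22.1) in Ctrl and from 20.4 to 30.7 CPM (median 26.5) in dTAG, with overlap, and was higher in dTAG in 6 of 6 pairs, as were 17.1% of the genes tested. Its log2 change was 0.32 ± 0.08 with an adjusted p of 0.00223 in edgeR. *Pop4* ranged from 33.8 to 53.0 CPM (median 42.9) in Ctrl and from 28.8 to 47.8 CPM (median 36.4) in dTAG, and was lower in 6 of 6 pairs, as were 20.8%. Its log2 change was −0.19 ± 0.06 with an adjusted p of 0.0143 in edgeR. These were 2 of the 10 members, against 39.6% of the 13962 genes tested in either direction (20.1% higher and 19.5% lower), so the share of members called was below that of the table. Both calls were lost without replicate 2, with log2 changes of 0.27 and −0.16.

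*Rpp25* was at 0.25 ± 0.10 with an adjusted p of 0.0611 in edgeR, and passed with the replicate as a block at 0.25 and an adjusted p of 0.00153, in a fit that called 45.9% of all genes. *Rpp38* was at 0.15, *Pop1* at 0.10, *Rpp14* at −0.08, *Pop5* at −0.09 and *Rpp30* at −0.13. *Rpp25l* was at 0.04 ± 0.07, with 20.2 to 29.8 CPM in Ctrl and 22.7 to 27.4 CPM in dTAG, and *Pop7* was at 0.12 ± 0.08.

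New RNA of *Rpp21* was higher by 0.41 ± 0.14 in dTAG of the ZCCHC8 line with an adjusted p of 0.0344 in limma, 1 of 8 members tested against 31.5% of the genes (6.54% higher and 24.9% lower). Old RNA of *Pop4* was lower, with a log2 change of −0.31 ± 0.09 and an adjusted p of 0.0273, 1 of 8 against 21.8% (9.82% lower). The other 7 members lay between −0.18 and 0.21 in new RNA and between −0.16 and 0.36 in old RNA. *Rpp14* and *Rpp38* had as few as 93 and 90 reads in a library of this line and were left out of the fits of label. Label loss gave no call in limma among the 7251 genes (0%), of which 147 had an unadjusted p under 0.05, and the slope differences of the 8 members lay between −0.04 and 0.07. The label of *Rpp25l* fell from 0.938 and 0.901 to 0.519 and 0.320 in Ctrl and from 0.898 and 0.964 to 0.459 and 0.356 in dTAG, with overlap at both times.

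The responses of read counts in the ZCCHC8 and YTHDC1 lines were compared directly in a fit to all 36 libraries. No member passed in edgeR or DESeq2, against 14.4% of the 15105 genes tested in edgeR (7.2% in each direction), of which 3921 had an unadjusted p under 0.05. The differences furthest from 0, ZCCHC8 minus YTHDC1, were 0.50 ± 0.39 for *Rpp25* (adjusted p 0.466 in edgeR) and 0.45 ± 0.22 for *Rpp21* (adjusted p 0.203). With a replicate block for each line, which called 32.3% of all genes, both passed, at 0.51 (adjusted p 0.00979) and 0.45 (adjusted p 0.00405). The other 8 lay between −0.14 and 0.35. In the YTHDC1 and ZCCHC8 lines the 6 dTAG and 6 Ctrl libraries overlapped for each of the 10 members, while dTAG lay above Ctrl without overlap for 1.06% and 5.69% of the genes tested and below it for 1.2% and 3.27%.

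**Figure D4:**
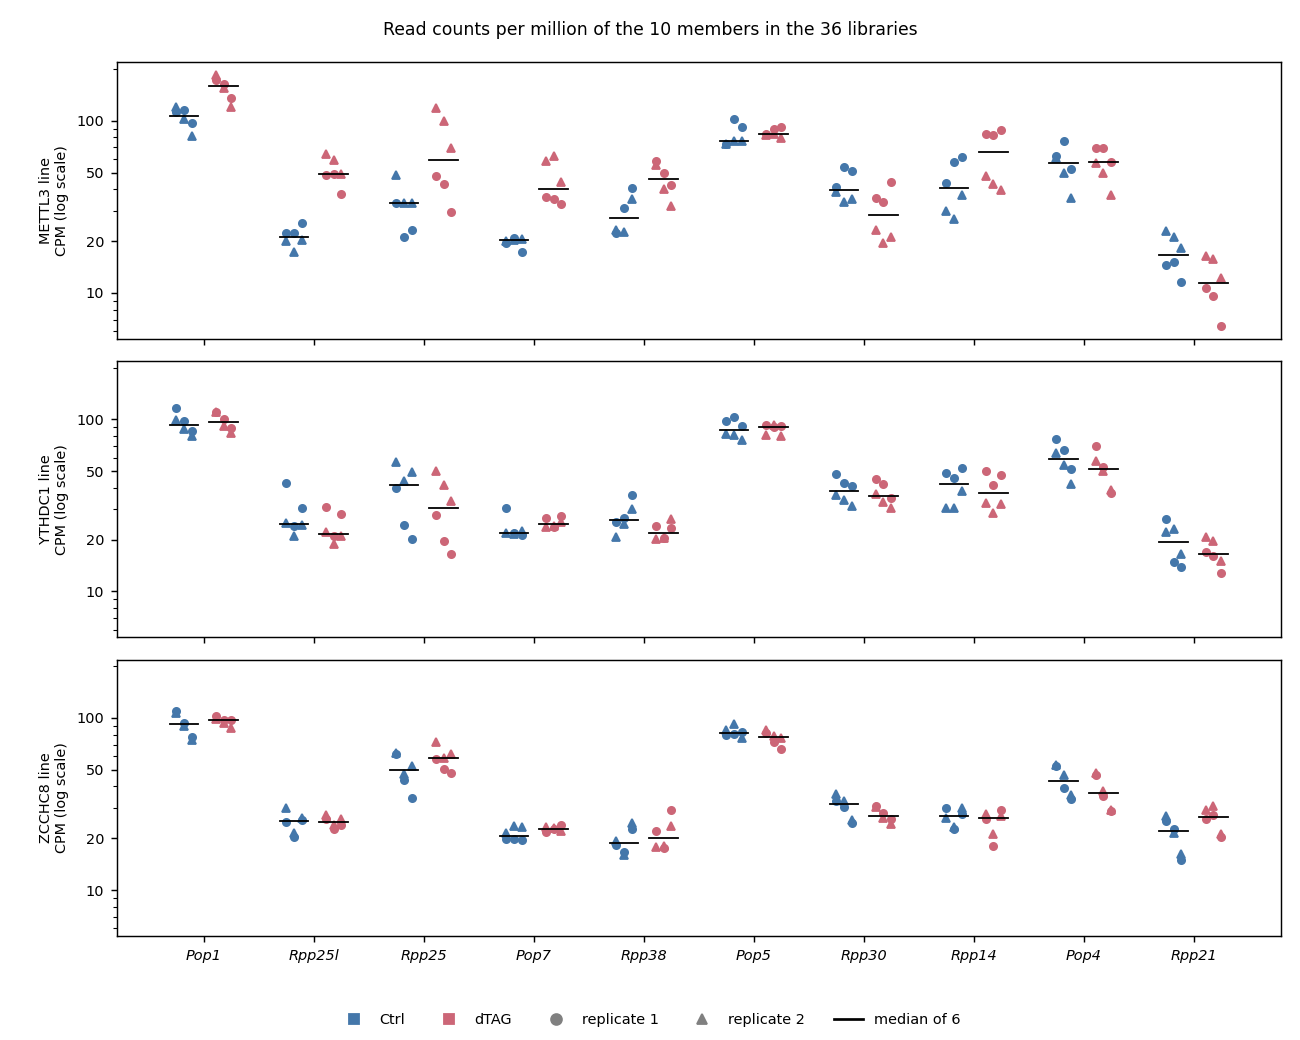
Read counts in CPM (y axis, log scale) for the 10 members in all 36 libraries, one panel per line, with Ctrl in blue, dTAG in red, replicate 1 as circles, replicate 2 as triangles, chase times 0, 90 and 180 min from left to right within an arm, and black bars at medians of 6. In the METTL3 line *Rpp25l* and *Pop7* show no overlap of the arms, and in the other lines the arms of each gene overlap.

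**Figure D5:**
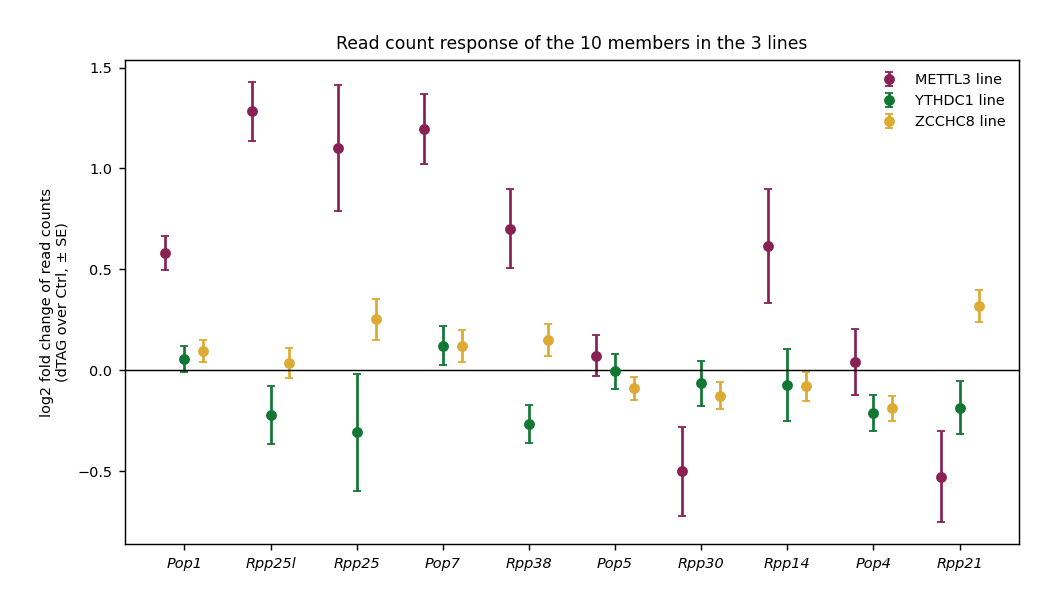
Log2 fold change of read counts, dTAG over Ctrl, with its SE (y axis) for the 10 members (x axis) in the METTL3, YTHDC1 and ZCCHC8 lines. The METTL3 values run from −0.53 for *Rpp21* to 1.28 for *Rpp25l*, and the values of the other lines from −0.31 to 0.32.

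Other genes of tRNA and precursor rRNA processing were taken from a list. Of its 26 genes 24 were in the tables, and the RNA components *Rmrp* and *Rpph1* were not analysed here. *Rpp40*, the remaining subunit in the tables, did not pass for read counts in any line. In the METTL3 line 3 of 24 were higher in read counts and 1 was lower, against 11.3% and 8.8% of all genes, the higher ones including *Clp1*, an RNA kinase of the tRNA splicing machinery (1.05 ± 0.27), and *Rcl1* of the small-subunit processome (0.34 ± 0.09). *Nol9*, a polynucleotide kinase that acts on precursor rRNA, was lower (−0.34 ± 0.10). *Clp1* was also the 1 listed gene of 23 that passed for label loss, with a slope higher by 0.48 ± 0.097, and its old RNA was higher by 2.15 ± 0.61. In the YTHDC1 line *Nol9* alone of 24 passed in read counts, against 5.25% of all genes, as lower (−0.30 ± 0.05, adjusted p 0.0111 in edgeR). In the ZCCHC8 line 3 of 24 rose and 5 fell in read counts, against 20.1% and 19.5% of all genes. *Clp1* rose by 0.41 ± 0.06 (adjusted p 5.63e-06) and *Nol9* by 0.21 ± 0.06 (adjusted p 0.00584). *Hsd17b10*, a subunit of the separate mitochondrial RNase P, fell with a log2 change of −0.37 ± 0.06 (adjusted p 2.67e-05), as did *Tsen34* (−0.20 ± 0.06, adjusted p 0.00618) and *Las1l* (−0.16 ± 0.05, adjusted p 0.0141).

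Over all 36 libraries the label of the first group was correlated, which follows in part from forming that group by its label. The METTL3 ratios that chose the genes are included, so nothing is read from it. Pearson's r of the log2 ratio between *Rpp25l* and *Rpp25* was 0.964, between *Rpp25l* and *Pop7* 0.940 and between *Pop7* and *Rpp38* 0.942. It was 0.916 between *Rpp25l* and *Rpp38* and 0.886 between *Rpp38* and *Rpp25*. These values are a description over libraries that share chase times and lines. Between *Rpp25l* and *Rpp30* Pearson's r was −0.63, and the median over all genes was 0.456 for *Rpp25l*. The genes most like *Rpp25l* were *Ythdf2*, a cytoplasmic m6A reader (r 0.982), *Mfsd5* (0.981) and *Atmin* (0.978). Those most like *Rpp38* were *Med18* (0.971), *Dyrk3* (0.970) and *Rrs1* (0.961), and those most like *Pop7* were *Nsmce3* (0.985), *Ddx28* (0.983) and *Abt1* (0.981).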

How the data were processed

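SLAM-seq was run by the authors on total RNA of 36 libraries (3 lines, 2 arms, 3 chase times, 2 replicates). Per the methods, rRNA reads were removed, the rest were aligned to mm10 with STAR 2.5.2b, and GRAND-SLAM was used. Its output was deposited as 6 tables, each for a line and a replicate. The deposited columns used are raw read counts per gene, the new-to-total ratio (a fraction, with its posterior mean and quantiles), and the coverage and conversion signal behind the T-to-C rate, as the authors' GRAND-SLAM run gave them. The release of the gene annotation is not given in the sources used here. Another 180 columns of per-library values were not used.

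From these, CPM (on TMM-normalised library sizes), new RNA (CPM × ratio) and old RNA (CPM × (1 − ratio)) were computed. Read counts were tested with edgeR 4.0.16 (quasi-likelihood, TMM, its low-count filter) and DESeq2 1.42.0 as an alternative. Label loss (interaction of arm and chase time on log2 ratio) and new and old RNA (log2 of CPM plus 0.5) were tested with limma 3.58.1 in R 4.3.3 on genes that kept 100 reads or more and ratios from 0.02 upwards throughout a line. P-values were Benjamini-Hochberg adjusted over all genes tested, with a threshold of 0.05. Scripts were tested on simulated data. Depth was 5274684 to 18652000 reads per library.

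Groups came from the sample labels. All 10 members are named for read counts in each line. In other comparisons some members are given as a range. Of the other pathway genes, at most 3 per direction and line are named, by adjusted p or, in the METTL3 line, by size of change, and 1 gene that this rule names is not reported here. For *Rpp25l*, *Rpp38* and *Pop7* the 3 genes with the highest correlation are named. The members and lists were chosen with earlier results of these data known. The study's reporting summary states that wells of a replicate were split from one batch of cells, so replicate numbers pair libraries. Deviations of same-numbered libraries correlated at 0.191 to 0.789 in 9 of 9 pairs. In the ZCCHC8 line the correlations were only 0.191 to 0.203, while the METTL3 and YTHDC1 lines gave 0.630 to 0.789. Alternatives were the replicate block, leaving out a replicate, other filters, the T-to-C rate, the posterior mean, a pseudocount of 0.1 and, added after seeing the data, ratios relative to the library median and limma without trend and robust moderation.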

Additional observations from a re-analysis of the deposited data

Results flagged for a closer look

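*Pop7* gave the 2 libraries that stood apart among 60 groups of 6 checked by Dixon's criterion, which chance meets in about 1 group in 20. Its lowest library in Ctrl cells of the METTL3 line was at 17.3 CPM, and its highest in Ctrl cells of the YTHDC1 line was at 30.6 CPM.

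The next 3 members moved in opposite directions in 2 lines in every pair of libraries of the same replicate and time. The median log2 ratio of dTAG to Ctrl CPM over 6 pairs for *Rpp21* was −0.53 in the METTL3 line and 0.33 in the ZCCHC8 line. For *Rpp25* it was 1.04 after METTL3 depletion and −0.30 after YTHDC1 depletion, and for *Rpp25l* it was 1.21 and −0.19. The difference was not tested for any of them. Taking each line alone, 6 of 6 pairs were higher in dTAG for 18.3% (METTL3) and 17.1% (ZCCHC8) of the genes tested. They were lower for 20.8% (METTL3) and 14.6% (YTHDC1). The share of all genes with opposite directions in 2 lines is not given here. The METTL3 line was used to choose the genes, so nothing is read from these 3.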

How the results depend on the processing

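With the replicate as a block, the number of members called is given with the share of all genes called in brackets. It was 8 for METTL3 read counts (48.5%) and 7 for METTL3 old RNA (38%). For YTHDC1 it was 4 in read counts (27.3%) and 4 in new RNA (16.1%). It was 2 for ZCCHC8 new RNA (37.2%) and 2 for the ZCCHC8 and YTHDC1 difference (32.3%). The block also called *Rpp14* and *Rpp25* as higher in METTL3 new RNA (6 members, 42.9% of all genes). It called *Rpp25* in ZCCHC8 read counts too (3 members, 45.9%), and it changed no other call of a member. Over all genes it raised calls from 2898 to 6994 for METTL3 read counts, from 746 to 3875 for YTHDC1 read counts, and from 39 to 99 for METTL3 label loss. METTL3 label loss called 0 members with at least 20 reads, against 0.044% of all genes, and ZCCHC8 old RNA then called 2, against 20.6%. Leaving out 1 replicate gave 0 to 4 members for METTL3 label loss, 4 to 7 for new RNA, 1 to 5 for old RNA and 7 to 8 for read counts. It gave 1 to 2 for YTHDC1 new RNA, 1 for YTHDC1 read counts (*Rpp25*), 0 to 2 for ZCCHC8 new RNA, 0 for old RNA, 0 to 4 for read counts and 1 to 2 for the difference between lines. *Rpp25* in ZCCHC8 new RNA ranged from −0.014 without replicate 2 to 0.43 without replicate 1. With ratios relative to the library median, METTL3 label loss called 1172 of 8289 genes (14.1%), among them 5 members. The causes were not tested. The half-life of label from the T-to-C rate was 84.6 min for *Pop7*, 121 min for *Rpp14*, 112 min for *Rpp25*, 86.6 min for *Rpp25l* and 73.9 min for *Rpp38*. From 0 and 90 min it was 158 min for *Pop7*, 545 min for *Rpp25* and 284 min for *Rpp25l*, with no value for *Rpp14*, and from 90 and 180 min it was 92.0 min for *Rpp25l*. *Rpp14*, *Rpp21* and *Rpp38* were near or under 100 reads in some libraries, which limits their ratios.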
